A study of Xenopus laevis with 12 samples.

Results

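The RNAs described here encode RNA-binding and RNA-processing proteins, and were read in immunoprecipitates from Xenopus laevis oocytes. A gene was taken as a member when its name in either of the authors' deposited gene tables began with the stem of one of these families, among them rbm, hnrnp, srsf, ptbp, ddx, pum, larp, zc3h, ythd, mettl, cnot and eif4. The genes rbm7, ddx6 and pabpc4 were left out. The rule gave 51 members with 41 symbols, of 3968 named genes and of 51061 genes in the count files. All 51 passed the filter on low counts and were tested. The oocytes were a pool of stages II and III, and lysate fractions rich in L-bodies, cytoplasmic bodies of RNA and protein in which localized mRNAs travel, were collected from a size exclusion column. All 3 groups share that preparation. By their labels they differ in the antibody used to precipitate RNA: Staufen, hnRNPab, or IgG as the control, with 4 libraries each. Whether replicates stem from different frogs is not in the labels, so the p-values reflect the variation among libraries, which may be technical.

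Proteins of these families act on an RNA at each stage of its life. The hnRNP, SR, PTB, STAR and RBM proteins bind pre-mRNA and steer splicing, DEAD-box helicases remodel RNA-protein complexes, and cleavage factors, poly(A) polymerases and CCR4-NOT deadenylases set the length of the poly(A) tail. Pumilio, LARP and cap-binding proteins control translation and decay in the cytoplasm, and methyltransferases and YTH proteins write and read methyl marks on RNA. In growing oocytes, which store maternal mRNA for later use, much of the control of gene expression lies in these cytoplasmic steps. What was measured here is the RNA of each of these genes, not the proteins. Roles below are as known from mammals unless another organism is named.

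Not every family was represented. A reference gene table lists 430 protein-coding X. laevis genes of these families, and 47 of the 51 members matched it by symbol. Of the hnRNP, SR, PTB, RBFOX, CELF, Musashi, STAR and RBM genes 19 of 138 were members, and of the genes for translational control 16 of 72. Of the genes for methylation and its readers 5 of 38 were, of the helicases 3 of 67, and of the poly(A) and 3′ end genes 4 of 49. That last share may be too low, since cnot8.S and the 3 fam46 genes, members as well, did not match the table by symbol. None of the 66 genes with the stems sf3, prpf, snrnp and lsm, which include those for spliceosome components, was a member. The share of all reference genes that the tables list was not computed, so these counts show no excess or lack of any role. A gene outside the 2 tables has no name here, so the level of any such family gene was not analysed here.

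Gene counts per library ran from 14147584 to 22103431, and no member had a count of 0 in any library. Together the members took 0.745% to 0.876% of the gene counts. Reads that fell in no gene made up 16.9% to 19.6% of the gene counts plus no-gene and ambiguous reads in IgG-labelled libraries. They made up 13.4% to 14.8% in Staufen-labelled and 11.0% to 12.9% in hnRNPab-labelled libraries, so the groups did not overlap. The part of this difference in the results was not tested. Levels are given as CPM, gene counts rescaled to a common library size by the trimmed mean of M values, in the order of replicates 1 to 4. CPM is not divided by transcript length, so levels of different genes are not compared. Libraries with the same replicate number deviated from their group means together, and the replicate 1 libraries often lay outermost. The labels also stand apart from the deposited tables. For the 6 members in both tables, the authors' deposited Staufen value less their hnRNPab value differed by 0.0138 to 0.0167 (log2) from the fitted difference between the hnRNPab-labelled and IgG-labelled libraries. Over all 448 tested genes in both tables the median gap was 0.0148. No contrast of 2 labelled groups matched the values of either table alone: over the 32 members with a value in the Staufen table of the authors' deposited tables, the closest was hnRNPab-labelled against IgG-labelled, with a median gap of 0.37. Over the 25 members in the authors' deposited hnRNPab table, the closest was the same contrast with its sign turned, with a median gap of 0.38. Groups are therefore called by their labels throughout, and a direction is one between labelled libraries. Whether labels or controls were exchanged was not tested, so the IgG label is not taken as proof of a control.

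The members differed mainly between the hnRNPab-labelled libraries and the other 2 groups. Against the IgG-labelled libraries, 24 of the 51 members were higher and 18 lower in the hnRNPab-labelled libraries at an adjusted p below 0.05 in edgeR's quasi-likelihood test, and 9 did not pass. Changes are given below as log2 fold changes with their standard error (SE), and a change that passed this test is a call. Over all 20803 tested genes, 16.3% were higher and 17.4% lower. Between these 2 groups the libraries did not overlap for 21 members that were higher and 14 that were lower, beside 15.2% and 16% of all tested genes. The median log2 fold change was 0.39 over the members and −0.02 over all tested genes. The authors chose the genes of the tables on these same libraries, and the direction of a member is largely set by the table that lists it, so these counts are not independent evidence of direction. Of the 26 members listed in the Staufen table alone 23 were higher, where 83% of all genes of that kind were, and of the 19 listed in the hnRNPab table alone 18 were lower, beside 82.9%. Both shares were near those of all genes with the same listing. In bulk RNA of this kind, fewer cells of a type and less RNA per cell cannot be told apart, nor can the amount of an RNA in the condensates and its recovery by an antibody.

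Fewer genes passed in Staufen-labelled against IgG-labelled libraries than in either other comparison, whether or not libraries were paired by replicate number. No member was higher in the Staufen-labelled libraries and 4 were lower, beside 4.45% and 3.33% of all tested genes. With the replicate number as a block, which compares libraries of the same number, 6 members were higher and 21 lower, beside 19% and 20.5% of all tested genes. Of the 19 members listed in the hnRNPab table alone, 3 were lower without the block, where 21.1% of such genes were, and 14 with it, where 69.2% were. Staufen-labelled against hnRNPab-labelled libraries gave 14 members higher and 26 lower, beside 16.5% and 16.3% of all tested genes. Here 23 of the 26 members listed in the Staufen table alone were lower, beside 80.1% of such genes, and 14 of the 19 listed in the hnRNPab table alone were higher, beside 55.6%. The 3 comparisons share libraries and are not independent of each other. With the block 0 calls of members were lost in any of them. This holds also for the calls below that were lost when a library was left out of the fit without the block.

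**Figure D1:**
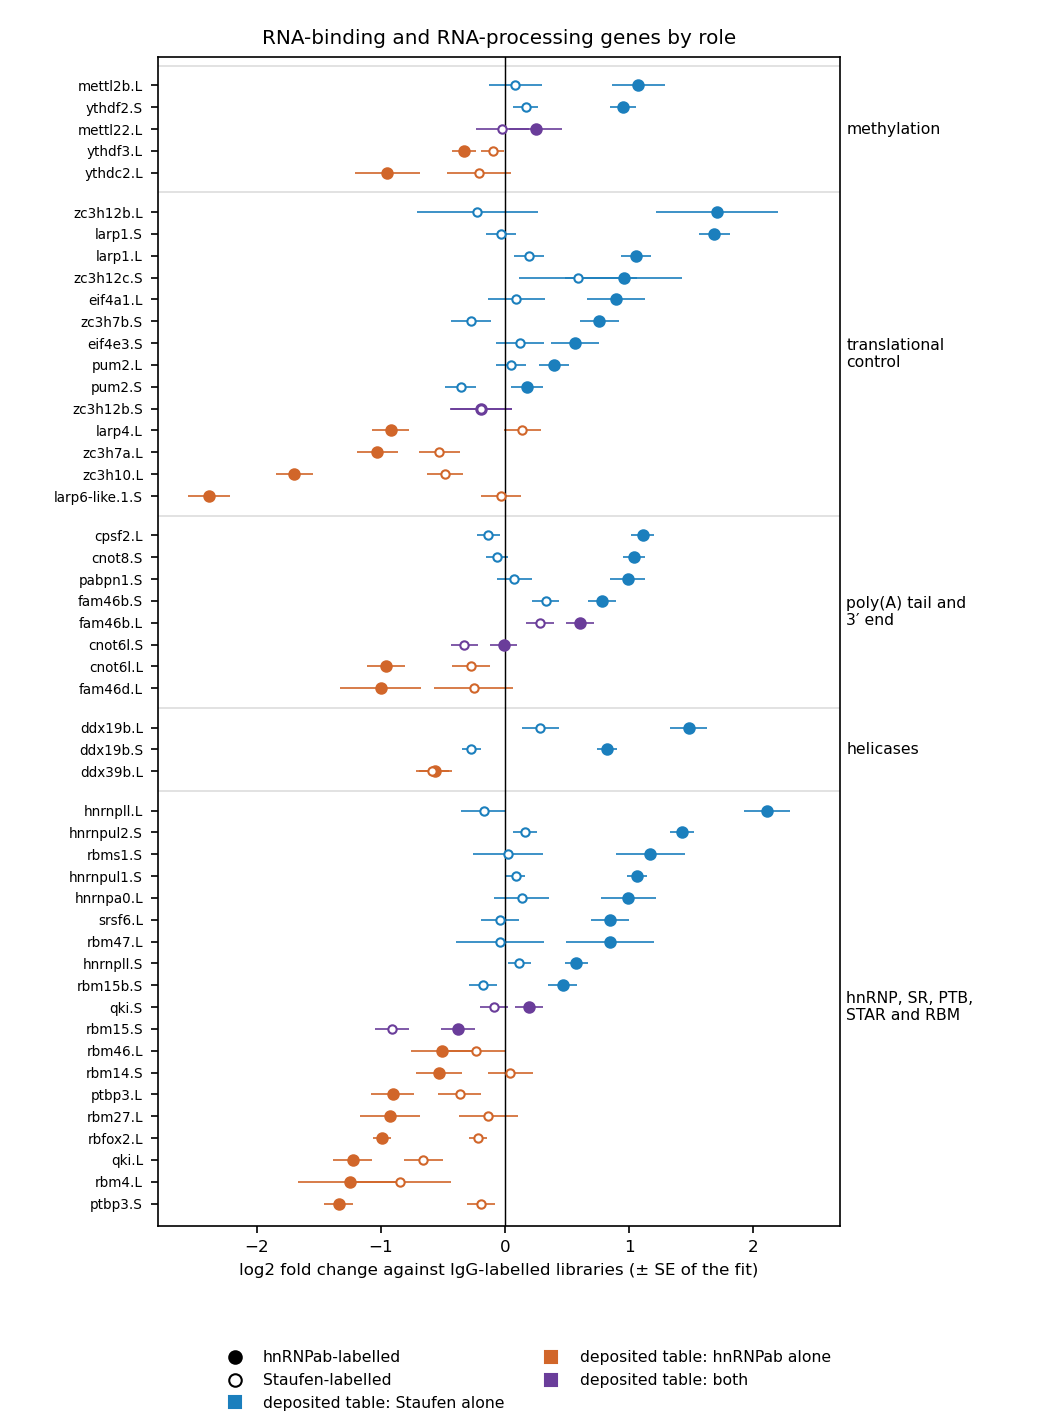
Log2 fold change against the IgG-labelled libraries for 49 of the 51 members by role, with filled points for hnRNPab-labelled and open points for Staufen-labelled libraries, bars of 1 standard error of the fit, and colours for the deposited table that lists the gene. Filled points run from −2.38 (larp6-like.1.S) to 2.11 (hnrnpll.L) and open points from −0.91 (rbm15.S) to 0.59 (zc3h12c.S). The zc3h12c.S gene had only 3 to 14 counts per library.

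Pumilio proteins bind a short element in 3′ untranslated regions and repress translation, a role also known from Drosophila and Xenopus. For pum2 the L copy was higher in the hnRNPab-labelled libraries and the S copy did not pass. Both copies are listed in the Staufen table alone, so the direction of the L copy goes with its listing. The pum2.L libraries gave 645, 619, 675 and 558 CPM with the IgG label, 721, 662, 663 and 533 CPM with the Staufen label and 933, 862, 831 and 657 CPM with the hnRNPab label. The lowest hnRNPab-labelled library, replicate 4, lay inside the IgG-labelled range. The log2 fold change was 0.39 (SE 0.122, adjusted p = 0.0255), and the call was lost when IgG-labelled replicate 2 or 4 or hnRNPab-labelled replicate 1, 2 or 3 was left out (adjusted p 0.0553 to 0.0822). The pum2.S RNA was at 719.8, 631, 696 and 593 CPM, 608, 472, 519.7 and 462 CPM and 909.8, 724, 732 and 620.3 CPM in the 3 groups. In hnRNPab-labelled against IgG-labelled libraries it gave log2 0.18 and did not pass (adjusted p = 0.33, and 0.00411 with the block). Staufen-labelled libraries were below hnRNPab-labelled ones at every replicate number (log2 -0.53, SE 0.127, adjusted p = 0.0062). Against IgG-labelled libraries the Staufen-labelled ones gave log2 -0.36 and did not pass (adjusted p = 0.124, and 4.21e-07 with the block).

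Genes of La-related proteins split between the tables, and their directions went with that split. LARP1 binds the cap and the 5′ terminal oligopyrimidine tract of mRNAs for ribosomal proteins, LARP4 binds poly(A) and poly(A)-binding protein, and LARP6 is known for binding collagen mRNAs. The larp1.S RNA was at 104, 80.6, 74.7 and 79.1 CPM in the IgG-labelled libraries, 95.9, 85.8, 70.3 and 78.8 in the Staufen-labelled and 294, 249.6, 260.5 and 283 in the hnRNPab-labelled libraries. All hnRNPab-labelled libraries lay above all others, a 3.22-fold difference from the IgG-labelled ones (log2 1.69, SE 0.125, adjusted p = 1.15e-06). Its homeolog larp1.L was at 115, 101, 91.5 and 80.8 CPM, 127, 118, 106 and 94 CPM and 219, 191, 192 and 205 CPM in the same groups, and was 2.08-fold higher in hnRNPab-labelled than in IgG-labelled libraries (log2 1.05, SE 0.122, adjusted p = 3.53e-05). The larp4.L RNA went the other way, with 232 to 326 CPM, 259 to 355 CPM and 120.4 to 178 CPM. The hnRNPab-labelled libraries lay below the others without overlap (log2 -0.92, SE 0.149, adjusted p = 4.50e-04). Of all members, larp6-like.1.S had the lowest value in hnRNPab-labelled against IgG-labelled libraries: its RNA was at 211, 319, 285 and 325 CPM with the IgG label, 233, 293, 288 and 301 CPM with the Staufen label and 43.5, 67.9, 53.1 and 53.6 CPM with the hnRNPab label. That is 5.22-fold lower (log2 -2.38, SE 0.167, adjusted p = 7.23e-07), while Staufen-labelled and IgG-labelled libraries overlapped. The ratio of larp4.L counts to the summed counts of larp1.L and larp1.S was 1.61 ± 0.371 in IgG-labelled and 1.65 ± 0.354 in Staufen-labelled libraries. In hnRNPab-labelled libraries it was 0.322 ± 0.0714 (SD, n = 4). This is a description with no test, since larp4 and larp1 were singled out after their values were seen and stand in different tables.

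Readers of N6-methyladenosine, the commonest internal mark of mRNA, gave values in both directions. Here ythdf2.S is listed in the Staufen table alone and ythdf3.L and ythdc2.L in the hnRNPab table alone, so the directions go with the listing. YTHDF2 recruits CCR4-NOT to marked mRNA, YTHDF3 is its cytoplasmic paralog, and YTHDC2 is a helicase needed for meiosis in mice. The ythdf2.S RNA was at 98.1, 90, 91.6 and 78.6 CPM in IgG-labelled, 109, 107, 99.5 and 86.2 in Staufen-labelled and 181, 164, 192 and 157 in hnRNPab-labelled libraries. It was 1.94-fold higher in the hnRNPab-labelled than in the IgG-labelled libraries (log2 0.95, SE 0.104, adjusted p = 2.21e-05). The ythdf3.L RNA was at 188, 229, 246 and 228 CPM, 184, 215, 225 and 208 CPM and 163, 183, 181 and 181 CPM in the same groups. It was lower by a smaller amount (log2 -0.33, SE 0.0963, adjusted p = 0.0183), and this call was lost when IgG-labelled replicate 3 was left out (adjusted p 0.06). For ythdc2.L the values were 123 to 233 CPM, 109 to 195 CPM and 61.7 to 127 CPM, with replicate 1 lowest in each group. The hnRNPab-labelled libraries gave log2 -0.95 against the IgG-labelled ones (SE 0.261, adjusted p = 0.0141), and the groups overlapped because IgG-labelled replicate 1 was below hnRNPab-labelled replicate 2. The ratio of ythdf3.L to ythdf2.S counts was 2.51 ± 0.422, 2.09 ± 0.321 and 1.03 ± 0.123 in the 3 groups (SD, n = 4), likewise described after the values were seen.

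The 2 methyltransferase-like members are not writers of that mark. METTL2B methylates cytidine in transfer RNA, and METTL22 methylates proteins. The mettl2b.L RNA was at 50.9, 33.2, 32.4 and 31.9 CPM in IgG-labelled, 54.2, 34.8, 33.5 and 34.8 in Staufen-labelled and 102, 60.2, 69.4 and 81.5 in hnRNPab-labelled libraries. Replicate 1 was the highest library of each group, and the hnRNPab-labelled libraries lay above the others (log2 1.08, SE 0.216, adjusted p = 0.00206). The mettl22.L RNA, which both tables list, was at 12.9, 23, 23.6 and 21.1 CPM, 14.4, 20.1, 21.9 and 23.1 CPM and 17.7, 27.8, 26.1 and 24.2 CPM, and in hnRNPab-labelled against IgG-labelled libraries gave log2 0.25 and did not pass (adjusted p = 0.428; 0.0033 with the block). Counted together, the 5 members for methylation and its readers had 2 higher and 2 lower in hnRNPab-labelled against IgG-labelled libraries, beside 16.3% and 17.4% of all tested genes. By listing, 2 stand in the Staufen table alone and 2 in the hnRNPab table alone.

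**Figure D2:**
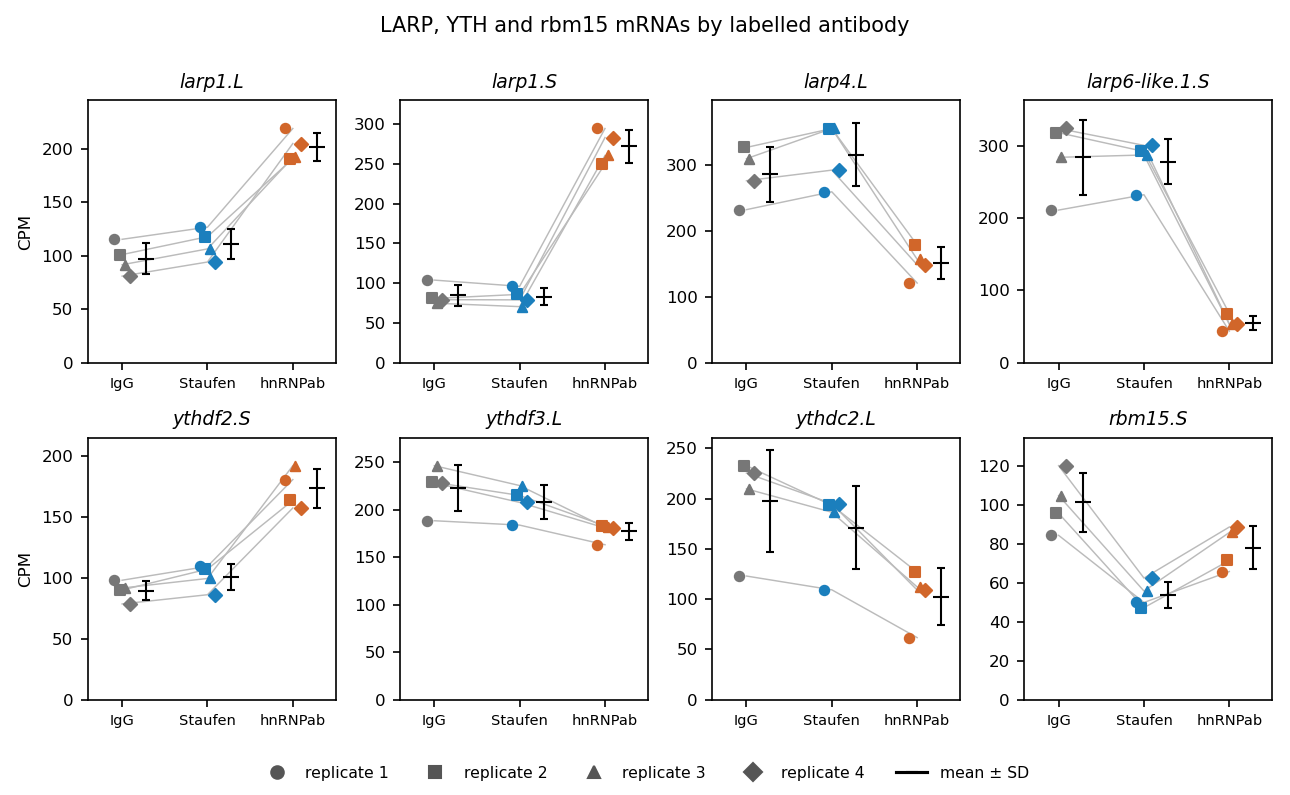
CPM in each library for larp1.L, larp1.S, larp4.L, larp6-like.1.S, ythdf2.S, ythdf3.L, ythdc2.L and rbm15.S by labelled group, one point per library, lines joining libraries of the same replicate number, and the mean ± SD in black. larp1.S, larp1.L and ythdf2.S are highest in the hnRNPab-labelled libraries, larp4.L and larp6-like.1.S are lowest there, and rbm15.S is lowest in the Staufen-labelled libraries at 47.2 to 62.4 CPM.

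The zinc finger genes of the zc3h family were placed under translational control by their name stem alone. Among the other members of that group, they split as well. This split goes with their listing: zc3h10.L and zc3h7a.L stand in the hnRNPab table alone, and zc3h7b.S and zc3h12b.L in the Staufen table alone. ZC3H12 proteins are ribonucleases of the Regnase family, and ZC3H7A and ZC3H7B bind microRNA precursors. The zc3h10.L RNA was at 47.3 to 64.9 CPM in IgG-labelled, 33.1 to 47.8 in Staufen-labelled and 15.8 to 19.7 in hnRNPab-labelled libraries. It was 3.25-fold lower in hnRNPab-labelled than in IgG-labelled libraries (log2 -1.70, SE 0.149, adjusted p = 4.00e-06). The zc3h7a.L RNA was lower too (log2 -1.03, SE 0.164, adjusted p = 3.94e-04), with 206 to 320 CPM against 427 to 623. Its paralog zc3h7b.S was higher (log2 0.76, SE 0.159, adjusted p = 0.00263), although hnRNPab-labelled replicate 4, at 38.4 CPM, lay inside the IgG-labelled range of 28.3 to 39.0 CPM. The ratio of zc3h7a.L to zc3h7b.S counts was 16.9 ± 2.72, 14.1 ± 1.79 and 5.02 ± 1.31 in the 3 groups (SD, n = 4), a description on the same terms.

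The zc3h12b copies differed in what they showed. The zc3h12b.L RNA was at 24.4, 16.6, 8.45 and 12 CPM in IgG-labelled, 22.8, 14.8, 5.98 and 9 in Staufen-labelled and 86.5, 61, 26.3 and 27.6 in hnRNPab-labelled libraries, with replicates 1 and 2 above replicates 3 and 4 in each group. Its log2 fold change was 1.71 (SE 0.491, adjusted p = 0.0174), and the call was lost when IgG-labelled replicate 3 or 4 or hnRNPab-labelled replicate 1 was left out (adjusted p 0.0527 to 0.0657). The zc3h12b.S RNA was at 3.86, 6.11, 5.65 and 3.24 CPM, 3.73, 4.92, 4.21 and 3.7 CPM and 4.12, 4.18, 5.28 and 2.92 CPM and did not pass in any comparison (adjusted p = 0.621 in hnRNPab-labelled against IgG-labelled libraries). The zc3h12c.S RNA had only 3 to 14 counts per library, and gave log2 0.96 with an SE of 0.47 (adjusted p = 0.147, and 0.0417 with the block). Its hnRNPab-labelled libraries ran from 0.159 to 0.811 CPM. The lowest of them, replicate 4 with 3 counts, lay below every IgG-labelled library.

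The 2 members of the cap-binding complex families were higher in the hnRNPab-labelled libraries, and both are listed in the Staufen table alone. EIF4A is the helicase of the cap-binding complex, and EIF4E3 is an atypical cap-binding protein. The eif4a1.L RNA was at 161 to 275 CPM in IgG-labelled, 173 to 281 in Staufen-labelled and 288 to 495 in hnRNPab-labelled libraries. Replicate 1 was highest in each group, and hnRNPab-labelled libraries lay above the IgG-labelled ones (log2 0.90, SE 0.233, adjusted p = 0.00998). The eif4e3.S RNA gave log2 0.56 (SE 0.195, adjusted p = 0.0414; 2.54e-11 with the block) with overlapping groups. Without the block this call was lost when IgG-labelled replicate 2, 3 or 4 or Staufen-labelled replicate 2 or 3 or hnRNPab-labelled replicate 1, 2 or 3 was left out (adjusted p 0.0521 to 0.152). In all, 7 of the 16 members for translational control were higher and 6 lower in hnRNPab-labelled against IgG-labelled libraries, with a median log2 fold change of 0.29. Beside these stand 16.3% and 17.4% of all tested genes, and 9 of the 16 are listed in the Staufen table alone and 6 in the hnRNPab table alone.

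The hnRNP members were higher in the hnRNPab-labelled libraries. All 5 are listed in the Staufen table alone, so that direction goes with their listing. Of all genes with that listing 83% were higher, beside 16.3% of all tested genes. HNRNPLL is known as a regulator of alternative splicing in lymphocytes, and HNRNPUL1 and HNRNPUL2 are nuclear proteins related to the scaffold protein HNRNPU. The hnrnpll.L RNA was at 15, 10.4, 10.5 and 11.5 CPM in IgG-labelled, 13.8, 10.7, 7.43 and 10.2 in Staufen-labelled and 59.2, 51.3, 46.2 and 48.5 in hnRNPab-labelled libraries. At 4.32-fold it had the highest ratio of any member in hnRNPab-labelled against IgG-labelled libraries (log2 2.11, SE 0.184, adjusted p = 3.81e-06), while its homeolog hnrnpll.S, at 16.7, 18.1, 16.3 and 15.4 CPM, 19, 18.8, 16.4 and 17.8 CPM and 25.1, 26.1, 23.6 and 24 CPM in the 3 groups, rose by 0.57 on the log2 scale (1.49-fold; adjusted p = 4.32e-04). The hnrnpul2.S RNA was at 35.3, 34.4, 31.2 and 30.4 CPM, 38.8, 40.9, 35.4 and 32.1 CPM and 93.7, 82.2, 87.2 and 90.7 CPM in the same groups. The hnRNPab-labelled libraries again lay above all others (log2 1.43, SE 0.0971, adjusted p = 5.88e-07). The hnrnpul1.S RNA was at 133, 125, 138 and 114 CPM, 141, 133, 138 and 128 CPM and 281, 251, 269 and 262 CPM, a difference of the same direction (log2 1.06, SE 0.0788, adjusted p = 1.15e-06). The hnrnpa0.L RNA was at 41.1 to 70.5 CPM in IgG-labelled and 77.5 to 143 CPM in hnRNPab-labelled libraries (log2 0.99, SE 0.224, adjusted p = 0.00428). The one SR protein gene, srsf6.L, was at 86.8 to 126 CPM and 152 to 231 CPM in the same groups (log2 0.85, SE 0.155, adjusted p = 0.00105).

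Of the 5 members of the PTB, RBFOX and STAR families, ptbp3.L, ptbp3.S, rbfox2.L and qki.L were lower in the hnRNPab-labelled libraries. These are all listed in the hnRNPab table alone, so that direction goes with their listing. Of all genes with that listing 82.9% were lower, beside 17.4% of all tested genes. PTBP3 is a paralog of the polypyrimidine tract binding protein, RBFOX2 regulates alternative exons, and QKI is a STAR family protein known from myelination. The ptbp3.S RNA was at 45.9, 57, 41 and 51.3 CPM in IgG-labelled, 39.6, 48.6, 41.7 and 41.2 in Staufen-labelled and 18.1, 19.2, 19 and 20.7 in hnRNPab-labelled libraries. The ptbp3.L RNA was at 38.2, 61.4, 59.8 and 56.2 CPM, 30.2, 46, 49.5 and 42 CPM and 25, 30.9, 30.1 and 29 CPM in the same groups. The ptbp3.S RNA fell by 1.34 on the log2 scale in hnRNPab-labelled against IgG-labelled libraries (SE 0.115, adjusted p = 3.34e-06), and ptbp3.L by 0.91 (SE 0.175, adjusted p = 0.00157). The rbfox2.L RNA was at 122, 129, 143 and 129 CPM, 110.4, 112, 119.8 and 107 CPM and 68.4, 66.7, 64.2 and 64 CPM in the same groups. The 3 groups did not overlap, and the hnRNPab-labelled libraries were lowest (log2 -0.99, SE 0.0739, adjusted p = 1.20e-06), while the difference between Staufen-labelled and IgG-labelled libraries did not pass (adjusted p = 0.1; 0.00121 with the block).

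For qki the L copy fell and the S copy did not pass. The qki.L RNA was at 97.4, 137, 138 and 139 CPM in IgG-labelled, 60.8, 85.2, 85 and 93.7 in Staufen-labelled and 46.3, 62.3, 56.9 and 53.2 in hnRNPab-labelled libraries. The hnRNPab-labelled (log2 -1.23, SE 0.156, adjusted p = 7.37e-05) and Staufen-labelled libraries (log2 -0.66, SE 0.155, adjusted p = 0.0217) were both below the IgG-labelled ones without overlap. The latter call was lost when IgG-labelled replicate 2, 3 or 4 was left out (adjusted p 0.0548 to 0.0676). The qki.S RNA was at 103, 144, 105 and 118 CPM, 97.8, 126, 105 and 113 CPM and 132, 131, 137 and 136 CPM, and gave log2 0.19 in hnRNPab-labelled against IgG-labelled libraries (adjusted p = 0.231; 0.00427 with the block).

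Of the 8 genes with the rbm stem, rbm15b.S and rbms1.S were higher and rbm27.L, rbm14.S and rbm4.L lower in the hnRNPab-labelled libraries, and the other 3 did not pass. The higher genes are listed in the Staufen table alone and the lower ones in the hnRNPab table alone. RBM15 and RBM15B recruit the methyltransferase complex for N6-methyladenosine to RNA. The rbm15.S RNA was at 84.3, 95.6, 105 and 120.0 CPM in IgG-labelled, 49.9, 47.2, 55.7 and 62.4 in Staufen-labelled and 65.7, 71.4, 85.7 and 88.6 in hnRNPab-labelled libraries. The Staufen-labelled libraries lay below all others, against the IgG-labelled ones (log2 -0.91, SE 0.137, adjusted p = 0.00177) and against the hnRNPab-labelled ones (log2 -0.53, SE 0.137, adjusted p = 0.00969). Between hnRNPab-labelled and IgG-labelled libraries the log2 fold change was -0.38 and just missed the threshold (adjusted p = 0.0502; 2.23e-07 with the block). The rbm15b.S RNA was at 233 to 283 CPM, 195 to 250.3 CPM and 293 to 403 CPM in the 3 groups, with the hnRNPab-labelled libraries highest (log2 0.46, SE 0.116, adjusted p = 0.00798). The rbm27.L, rbm14.S and rbm4.L RNAs were lower, with log2 fold changes of -0.93, -0.53 and -1.25 (adjusted p = 0.0102, 0.0442 and 0.0369). For rbm14.S and rbm4.L the groups overlapped. The rbm14.S call was lost when IgG-labelled replicate 2, 3 or 4 or Staufen-labelled replicate 2 or 4 or hnRNPab-labelled replicate 1, 2, 3 or 4 was left out (adjusted p 0.0538 to 0.12), and that of rbm4.L, at 1.1 to 7.0 CPM, when IgG-labelled replicate 2, 3 or 4 or hnRNPab-labelled replicate 1, 2 or 4 was left out (adjusted p 0.0652 to 0.112). The rbm46.L and rbm47.L RNAs gave log2 -0.51 and 0.85 and did not pass (adjusted p = 0.142 and 0.0903; 3.21e-09 and 8.87e-06 with the block). The rbms1.S RNA, for a binder of single-stranded nucleic acid, was higher (log2 1.17, SE 0.279, adjusted p = 0.00603). Over the 19 hnRNP, SR, PTB, RBFOX, STAR and RBM members, 8 were higher and 7 lower in hnRNPab-labelled against IgG-labelled libraries. Their median log2 fold change was 0.19. All tested genes gave 16.3% and 17.4%, and 9 of the 19 are listed in the Staufen table alone and 8 in the hnRNPab table alone.

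The 3 helicase members comprised both copies of ddx19b and ddx39b.L. Both ddx19b copies are listed in the Staufen table alone and ddx39b.L in the hnRNPab table alone. Their directions in hnRNPab-labelled against IgG-labelled libraries go with that listing. There 83% of all genes listed for Staufen alone were higher, and 82.9% of those listed for hnRNPab alone were lower. DDX19B acts at the nuclear pore in mRNA export, and DDX39B acts in splicing and in loading the export complex. The ddx19b.L RNA was at 141, 107, 117 and 104 CPM in IgG-labelled, 166, 135, 148 and 124 in Staufen-labelled and 420.2, 271, 304 and 317 in hnRNPab-labelled libraries. It was 2.79-fold higher in hnRNPab-labelled than in IgG-labelled libraries (log2 1.48, SE 0.15, adjusted p = 1.26e-05). The ddx19b.S RNA was at 164, 166, 166 and 151 CPM, 138, 147, 134 and 118 CPM and 291, 273, 287 and 294 CPM and was 1.77-fold higher (log2 0.82, SE 0.0791, adjusted p = 8.53e-06). Its Staufen-labelled libraries lay below the IgG-labelled ones without overlap, a log2 fold change of -0.27 that did not pass (adjusted p = 0.0592; 1.42e-04 with the block). Against that, ddx19b.L gave log2 0.29 in Staufen-labelled against IgG-labelled libraries (adjusted p = 0.346; 1.14e-04 with the block). The ddx39b.L RNA was at 29.6, 42.3, 34.6 and 44.2 CPM, 21.1, 25.3, 25.8 and 28.2 CPM and 25.5, 25.9, 24.2 and 26.7 CPM. The Staufen-labelled (log2 -0.59, SE 0.133, adjusted p = 0.0182) and hnRNPab-labelled libraries (log2 -0.56, SE 0.133, adjusted p = 0.00602) were both below the IgG-labelled ones and overlapped with each other. The call for Staufen was lost when IgG-labelled replicate 2 or 4 was left out (adjusted p 0.0503 to 0.0639) and when the fit held those 2 groups alone (adjusted p = 0.0575).

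Of the 8 members for the poly(A) tail and 3′ end, 5 were higher and 2 lower in hnRNPab-labelled against IgG-labelled libraries. Over all tested genes, 16.3% were higher and 17.4% lower there. Of the 8, 4 had only a Staufen listing, 2 only an hnRNPab listing and 2 both. For genes with a single listing the direction goes with it. CPSF2 is a subunit of the cleavage and polyadenylation factor, and PABPN1 binds nascent poly(A) tails in the nucleus. The cpsf2.L RNA was at 25.9, 27.5, 26.3 and 25.3 CPM in IgG-labelled, 21.9, 24.7, 22.7 and 26.3 in Staufen-labelled and 50, 55.4, 58.7 and 62.3 in hnRNPab-labelled libraries. It was 2.16-fold higher in hnRNPab-labelled than in IgG-labelled libraries (log2 1.11, SE 0.0952, adjusted p = 3.40e-06). The pabpn1.S RNA, at 24.5 to 31.5 CPM and 51.0 to 63.0 CPM in these groups, was 1.99-fold higher (log2 0.99, SE 0.141, adjusted p = 1.70e-04).

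The deadenylase genes of the CCR4-NOT complex did not move together. That goes with their listing, cnot8.S in the Staufen table alone and cnot6l.L in the hnRNPab table alone. CNOT6L and CNOT8 are both catalytic subunits that shorten poly(A) tails. The cnot8.S RNA was at 44.5, 50.4, 39.8 and 43.4 CPM in IgG-labelled, 44.4, 46.2, 41.2 and 39.1 in Staufen-labelled and 94.7, 90.2, 89.4 and 92.7 in hnRNPab-labelled libraries, and was 2.06-fold higher in the last (log2 1.04, SE 0.0892, adjusted p = 3.34e-06). The cnot6l.L RNA was at 627, 956, 957 and 937 CPM, 585, 747, 817 and 723 CPM and 373, 496, 480.0 and 442 CPM, with replicate 1 lowest in each group. It was 1.94-fold lower in hnRNPab-labelled than in IgG-labelled libraries (log2 -0.96, SE 0.153, adjusted p = 3.99e-04). Its homeolog cnot6l.S was at 249, 316, 340.1 and 329 CPM, 215, 243, 266 and 259 CPM and 280.2, 309, 329.6 and 307 CPM. There the IgG-labelled and hnRNPab-labelled libraries overlapped, with log2 -0.01 (adjusted p = 0.97), and the Staufen-labelled libraries were below the hnRNPab-labelled ones (log2 -0.32, SE 0.109, adjusted p = 0.0399). That last call was lost when IgG-labelled replicate 2 or Staufen-labelled replicate 1 or 2 or hnRNPab-labelled replicate 2, 3 or 4 was left out (adjusted p 0.0528 to 0.103).

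FAM46B is a poly(A) polymerase of the cytoplasm that lengthens tails, and both its copies were higher in the hnRNPab-labelled libraries. The S copy is listed in the Staufen table alone, the L copy in both tables and fam46d.L in the hnRNPab table alone. The directions of fam46b.S and fam46d.L thus go with their listing. The fam46b.S RNA was at 386, 495, 476 and 443 CPM in IgG-labelled, 490.4, 590.0, 621 and 557 in Staufen-labelled and 657, 780.5, 872 and 783 in hnRNPab-labelled libraries. The fam46b.L RNA was at 227, 311, 303 and 293 CPM, 301, 340.5, 384 and 351 CPM and 387, 434, 471 and 431 CPM. In hnRNPab-labelled against IgG-labelled libraries the copies rose on the log2 scale by 0.78 (SE 0.112, adjusted p = 1.86e-04) and 0.60 (SE 0.113, adjusted p = 0.00128). The Staufen-labelled libraries lay between the other 2 at each replicate number, and gave log2 0.33 and 0.28 against the IgG-labelled ones without passing (adjusted p = 0.109 and 0.184; 9.82e-07 and 2.71e-05 with the block). The fam46d.L RNA, at 2.9 to 14.4 CPM, was lower in the hnRNPab-labelled libraries (log2 -1.0, SE 0.324, adjusted p = 0.0312) with overlapping groups. This call was lost when IgG-labelled replicate 3 or 4 or hnRNPab-labelled replicate 1, 3 or 4 was left out (adjusted p 0.0521 to 0.104). It was also lost when the fit held the hnRNPab-labelled and IgG-labelled groups alone (adjusted p = 0.0522).

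**Figure D3:**
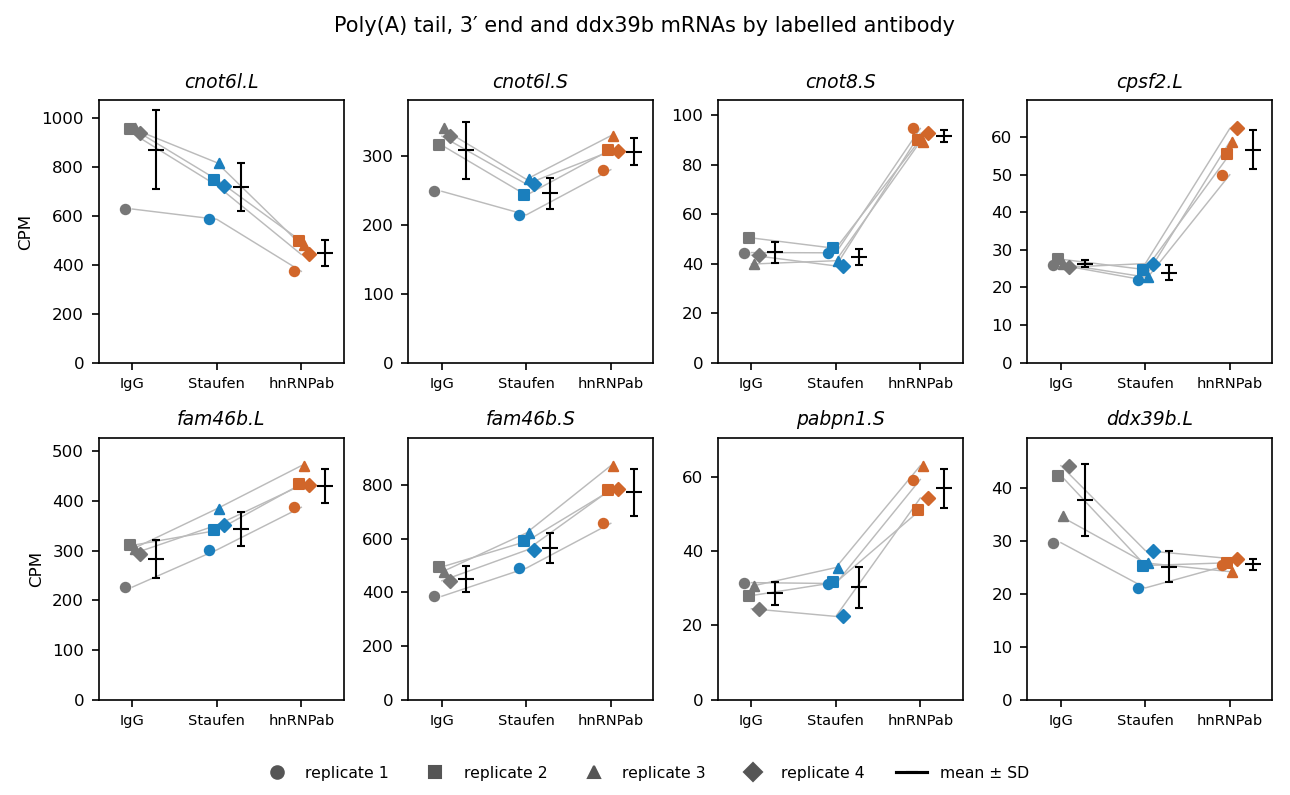
CPM in each library for cnot6l.L, cnot6l.S, cnot8.S, cpsf2.L, fam46b.L, fam46b.S, pabpn1.S and ddx39b.L by labelled group, one point per library, lines joining libraries of the same replicate number, and the mean ± SD in black. cnot8.S, cpsf2.L and pabpn1.S are highest in the hnRNPab-labelled libraries, and cnot6l.L is lowest there. For ddx39b.L the Staufen-labelled and hnRNPab-labelled libraries lie at 21.1 to 28.2 CPM, below the IgG-labelled libraries.

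The 6 members that both tables list were cnot6l.S, fam46b.L, mettl22.L, qki.S, rbm15.S and zc3h12b.S. In the authors' deposited table for Staufen their log2 fold changes were 1.02, 1.70, 1.15, 1.39, 1.25 and 1.00 in that order. In the authors' deposited table for hnRNPab they were 1.01, 1.08, 0.88, 1.18, 1.61 and 1.18. Between the labelled groups, none of the 6 was higher in the Staufen-labelled than in the IgG-labelled libraries at the threshold without the block and fam46b.L alone was with it, beside 2.23% and 13.2% of all genes in both tables. In hnRNPab-labelled against IgG-labelled libraries fam46b.L alone was higher without the block, beside 15.4%. These counts lie near the shares of all genes in both tables. The tables and the labelled groups thus give different values for one gene, and the 2 sources are not pooled here.

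Both homeologs were members for 10 symbols, which allowed the 2 copies to be set against each other within each library. The log2 ratio of L to S counts (with a pseudocount of 0.5) removes what acts on both copies alike, though reads of near-identical copies can be misassigned. For hnrnpll the ratio was -0.15, -0.80, -0.62 and -0.42 in IgG-labelled, -0.46, -0.81, -1.14 and -0.80 in Staufen-labelled and 1.24, 0.97, 0.97 and 1.01 in hnRNPab-labelled libraries. The L copy had the lower count in every IgG-labelled and Staufen-labelled library and the higher count in every hnRNPab-labelled one. For larp1 the order turned the other way, with 0.15, 0.33, 0.29 and 0.03 in IgG-labelled, 0.40, 0.46, 0.60 and 0.25 in Staufen-labelled and -0.43, -0.39, -0.44 and -0.47 in hnRNPab-labelled libraries. Here the L copy had the higher count in the first 2 groups and the lower count in the third.

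For ddx19b the Staufen-labelled libraries stood with the hnRNPab-labelled ones. The ddx19b ratio was -0.47 ± 0.18 in IgG-labelled, 0.09 ± 0.16 in Staufen-labelled and 0.18 ± 0.24 in hnRNPab-labelled libraries (SD, n = 4). The pum2 ratio was -0.08 ± 0.06, 0.32 ± 0.13 and 0.14 ± 0.10 in the same groups. In both pairs every Staufen-labelled library was above the IgG-labelled library of its replicate number. The ptbp3 ratio was 0.13 ± 0.33, -0.05 ± 0.27 and 0.57 ± 0.12. For cnot6l, fam46b, qki and zc3h12b one copy stands in a single table and the other in both, so part of the difference between the copies is set by that choice. Their mean hnRNPab-labelled ratio less the IgG-labelled one was -0.94 for cnot6l, -0.17 for fam46b, -1.43 for qki and 1.81 for zc3h12b. Across the 10 pairs and 3 comparisons, 30 two-sided exact permutation tests were made. The smallest p that 4 against 4 libraries allow is 0.0286, its adjusted value was 0.0536, and no pair passed. These tests treat the libraries as unpaired. An exact test by sign changes within replicate numbers, added after the data were seen, cannot go below 0.125 with 4 numbers. It therefore could not pass at 0.05 whatever the data. In 24 of the 30 comparisons, which share libraries, the differences had 1 sign in all 4 numbers. The share among other pairs of copies was not computed, so nothing is concluded from that count.

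**Figure D4:**
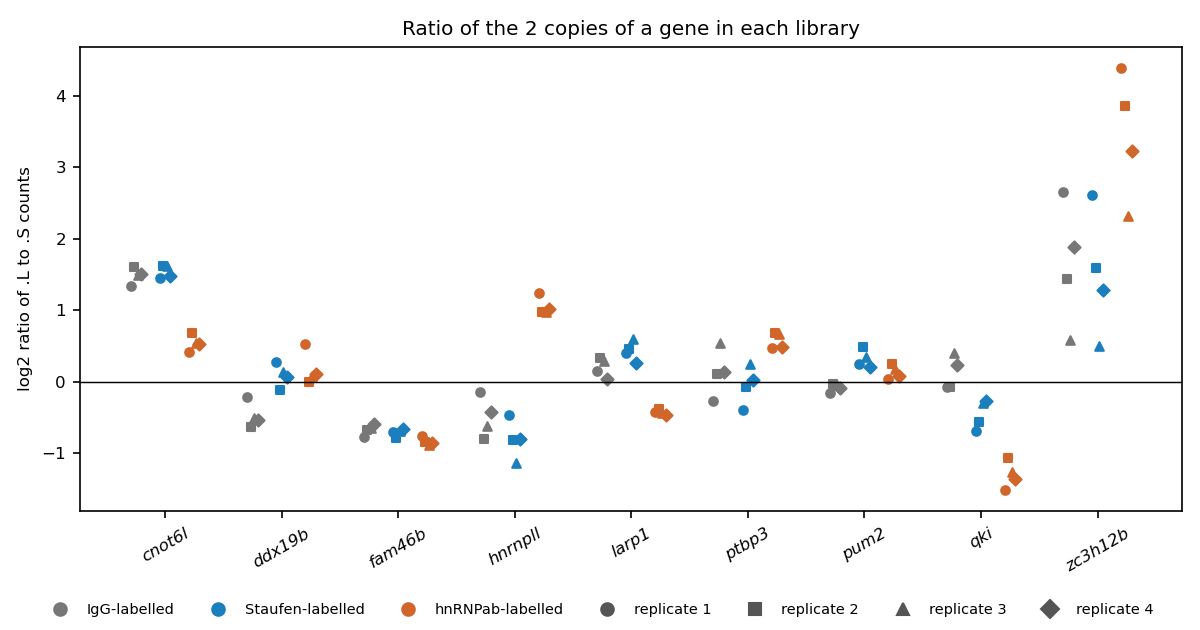
Log2 ratio of L to S counts within each library for 9 symbols with both copies as members, by labelled group in colour and replicate number in shape, one point per library, with a line at equal counts. The hnrnpll points lie above 0 in the 4 hnRNPab-labelled libraries and below 0 in the other 8, and the larp1 points do the reverse.

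Other genes that bind or process RNA, taken from a list of further families and single genes, also fell on both sides. Of that list 43 genes were named and tested. In hnRNPab-labelled against IgG-labelled libraries 21 of them were higher and 15 lower, beside 16.3% and 17.4% of all tested genes. In Staufen-labelled against IgG-labelled libraries 9 were higher and 10 lower, beside 4.45% and 3.33% (14 and 17 with the block, beside 19% and 20.5%). In Staufen-labelled against hnRNPab-labelled libraries 11 were higher and 19 lower, beside 16.5% and 16.3%. They too were named through the authors' tables, 21 through that for Staufen alone, 14 through that for hnRNPab alone and 8 through both. In hnRNPab-labelled against IgG-labelled libraries, 83% of all genes listed for Staufen alone were higher. Of those listed for hnRNPab alone, 82.9% were lower there. The nuclear exoribonuclease gene xrn2.L (log2 2.65, SE 0.122, adjusted p = 4.64e-08) and the nuclear cap-binding gene ncbp1.S (log2 2.06, SE 0.0883, adjusted p = 3.21e-08) were higher in hnRNPab-labelled than in IgG-labelled libraries. So were bicc1.S, for a translational repressor of early development (log2 1.28, SE 0.0789, adjusted p = 2.90e-07), and adarb1.S, for an adenosine deaminase of double-stranded RNA (log2 1.13, SE 0.0824, adjusted p = 1.07e-06). These 4 had the lowest p of the list and all stand in the Staufen table alone. Among the 15 lower genes, dicer1.L for the nuclease that makes microRNAs (log2 -1.85, SE 0.183, adjusted p = 1.03e-05) and papola.L for the canonical poly(A) polymerase (log2 -1.66, SE 0.138, adjusted p = 2.63e-06) stand in the hnRNPab table alone, and were named after their values were seen.

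Of the marker genes for oocytes and for the cells around them, the tables name 2. The oocyte growth factor gene gdf9.L was at 102 to 129 CPM in IgG-labelled, 137 to 154 in Staufen-labelled and 271 to 374 in hnRNPab-labelled libraries. The red blood cell gene slc4a1.L was at 25.0 to 35.7 CPM, 27.0 to 40.5 CPM and 104 to 163 CPM in the same groups. No marker of follicle or theca cells, nor of stroma or endothelium, has a name in the tables. Both markers were highest in the hnRNPab-labelled libraries. They are named only because the authors' tables, chosen on these same libraries, list them, so their levels are no independent evidence of cell content. Their part in the results of the members was not tested.

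In each comparison some calls were lost under an alternative. Of the 42, 40 and 4 calls in hnRNPab-labelled against IgG-labelled, Staufen-labelled against hnRNPab-labelled and Staufen-labelled against IgG-labelled libraries, 35, 31 and 2 held under every alternative. Besides those already named, the Staufen-labelled against hnRNPab-labelled calls of eif4a1.L, fam46b.L, ptbp3.L, pum2.L, rbm14.S, rbm27.L, ythdc2.L and zc3h7a.L were each lost when 1 of several libraries was left out. That of eif4a1.L was lost when Staufen-labelled replicate 2, 3 or 4 or hnRNPab-labelled replicate 1 was left out (adjusted p 0.0585 to 0.0667) and that of rbm27.L when Staufen-labelled replicate 2 or 4 or hnRNPab-labelled replicate 1 was left out (adjusted p 0.0592 to 0.069). Without IgG-labelled replicate 2 or 4, 2 members were lower in Staufen-labelled than in IgG-labelled libraries instead of 4, and without IgG-labelled replicate 1, 7 were. Without Staufen-labelled replicate 2 or hnRNPab-labelled replicate 1, 9 members were higher in Staufen-labelled than in hnRNPab-labelled libraries instead of 14. Without the filter on low counts, the calls of rbm14.S, rbm4.L and ythdf3.L in hnRNPab-labelled against IgG-labelled libraries (adjusted p = 0.0588 to 0.0742) were lost. So were those of cnot6l.S, fam46b.L, ptbp3.L, pum2.L, ythdc2.L and zc3h7a.L in Staufen-labelled against hnRNPab-labelled libraries (adjusted p = 0.0504 to 0.0824). No called value changed its sign.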

How the data were processed

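RNA from L-body fractions of Xenopus laevis oocytes was immunoprecipitated and sequenced as 150 bp paired reads, per the labels' protocols, in 12 libraries. The authors deposited whole-number counts per gene for each library, and STAR 2.6.1b, HTSeq 0.9.1 and edgeR appear in the submitters' processing notes. The build, annotation and strandedness were not given in the sources used here. Further, 2 gene tables were deposited by the authors with log2 fold changes, log2 CPM, an F score and p-values per the file headers. These supplied the gene names, and their values are printed only where named. Single-gene results of 2 members are not reported here, and counts include them. Members and lists were chosen with earlier results of these data known.

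Counts were tested with edgeR 4.0.16 in R 4.3.3: TMM scaling, the default filter on low counts (20803 of 51061 genes), a single model of the 3 groups over the 12 libraries with no covariate, the quasi-likelihood test, and Benjamini-Hochberg adjustment over all tested genes at 0.05. The standard error (SE) of a log2 fold change was its size divided by the square root of F. Lines that name no gene were left out. A count of 0 allows up to 3 counts, 0.136 to 0.212 CPM per library, for counting error only.

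The labels number the replicates 1 to 4 in each group. The 12 pairs with the same number had deviations from the group means correlated at 0.783 to 0.875 and other pairs at −0.556 to −0.0593, so the numbers pair the libraries, and a fit with the replicate number as a block was made. This pairing comes from the data, not from the labels. No 2 libraries were duplicates by a chi-square test of their counts. Per-library values were printed for up to 4 called members per role, without overlap between groups, with the lowest p, for members with both copies, and for those in both tables; other members are given by ranges. Alternatives were DESeq2 1.42.0, RLE scaling, no filter and a stricter filter, the 2 compared groups alone, the block, and leaving out each library, with replicate number 1 left out of all groups added after seeing the data.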

Additional observations from a re-analysis of the deposited data

Results flagged for a closer look

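In 10 of 153 groups of 4 libraries, 1 member in 1 labelled group, a single library stood apart from the other 3 by Dixon's test at the 95% level. Chance flags about 1 in 20 groups. Of the 10, 9 were replicate 1 libraries. In the IgG-labelled group, replicate 1 was apart for cnot6l.L (627 CPM), eif4a1.L (275 CPM), mettl2b.L (50.9 CPM), qki.L (97.4 CPM) and rbm46.L (42.4 CPM). In the Staufen-labelled group, replicate 1 was apart for eif4a1.L (281 CPM), mettl2b.L (54.2 CPM) and ythdc2.L (109 CPM). In the hnRNPab-labelled group, replicate 1 was apart for ythdf3.L (163 CPM) and replicate 4 for zc3h7b.S (38.4 CPM). Replicate 1 was the high library for eif4a1.L and mettl2b.L and the low one for cnot6l.L, qki.L, rbm46.L, ythdc2.L and ythdf3.L, and hnRNPab-labelled replicate 4 was the low one for zc3h7b.S.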

How the results depend on the processing

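Staufen-labelled against IgG-labelled libraries changed most with the processing. With the replicate block, 3944 of all tested genes were higher and 4259 lower, and 6 and 21 of the members. DESeq2 gave 1176 genes lower, with 1 member higher and 9 lower, the fit without a filter 442 genes lower, and the fit with replicate number 1 left out of all groups 1268 genes lower, with 2 members higher and 9 lower. Leaving out 1 library gave 628 to 950 genes higher and 383 to 960 lower, and 0 and 2 to 7 members. In hnRNPab-labelled against IgG-labelled libraries the block gave 6505 genes higher and 6937 lower, and in Staufen-labelled against hnRNPab-labelled ones 6880 and 6551. Leaving out 1 library gave 2822 to 3709 genes higher and 2976 to 3821 lower in the first of these, with 21 to 25 members higher and 14 to 20 lower, and 2868 to 3687 and 2856 to 3588 in the second, with 9 to 15 and 23 to 26 members. The causes were not tested.

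Over 153 values, 51 members in 3 comparisons, the block lost 0 calls and gained 37, DESeq2 lost 0 and gained 8, leaving out the filter lost 9, the 2 groups alone lost 4 and gained 2, and RLE scaling changed none. The 37 calls gained with the block were 23 in Staufen-labelled against IgG-labelled libraries and 7 in each of the other comparisons, and it changed no other call. Leaving out replicate number 1, an alternative chosen after seeing the data, lost 2 calls, both of pum2.L, and gained 11. No called value was reversed. The zc3h12b.S, zc3h12c.S, rbm4.L and rbm47.L RNAs had under 8 CPM in every library, and the part of depth in their results was not tested.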
